A study of Homo sapiens with 30 samples.

Results

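A group of 10 genes of neuronal type was followed across every library of a study of BET inhibition in Ewing sarcoma cell lines. They were MAP2, KIF5C, ATCAY, OSBPL6, EFR3B, TIAM1, NSG2, TFAP2B, VGF and B4GALNT1, 10 of the 33538 genes in the count table, and all 10 were among the 16713 genes with enough counts to be tested. The names came from a list drawn up with earlier results of the same data known, for a shift in CHLA10 cells after 20 days of inhibitor. They were taken as chosen by their values in that comparison, which are given here as a description, with no test. Treatment was tested for the 10 genes in CHLA10 at 3 days, in A673 and in TC32, and comparisons that use the CHLA10 20-day libraries are described only. For TIAM1, VGF and B4GALNT1 the A673 20-day results are description only too, since how these genes were chosen is not stated. The study treated 3 lines, CHLA10, A673 and TC32, labelled as Ewing sarcoma with the EWS::FLI1 fusion, with BMS-986158 or its solvent DMSO. BMS-986158 is a small molecule that blocks the acetyl-lysine pockets of the BET proteins, which link acetylated chromatin to transcription. The treated groups received 5 nM for 72 hours, labelled 3 days, in all 3 lines, and 5 nM without a break for 20 days in CHLA10 and A673, the cells that the labels call persisters. Each treated group had a DMSO group of the same line and label, giving 10 groups of 3 libraries, and no TC32 group was labelled 20 days. How long the 20-day DMSO groups were kept in DMSO is not stated. CHLA10 was grown in IMDM with insulin, transferrin and selenium and more serum than A673 and TC32, which were grown in RPMI, so line and medium cannot be told apart. The labels do not say whether the 3 libraries of a group came from separate cultures, and the p-values therefore speak only of library-to-library spread, possibly technical.

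Neurons depend on long microtubule tracks, motor transport, regulated secretion and a membrane rich in particular lipids, and the 10 genes touch each of these. MAP2 binds and steadies microtubules in dendrites, and KIF5C is a heavy chain of kinesin-1, the motor that carries cargo along axons. ATCAY encodes caytaxin, a brain protein with a lipid-binding fold that also binds kinesin light chains. OSBPL6 belongs to the oxysterol-binding proteins, which move lipids between membranes, and EFR3B holds the lipid kinase PI4KA at the plasma membrane. TIAM1 is an exchange factor that switches on the small GTPase RAC1. NSG2 is a protein of endosomes in neurons, and TFAP2B is an AP-2 transcription factor that acts in neural crest derivatives. VGF is a secreted precursor of neuropeptides, and B4GALNT1 is the transferase that makes the gangliosides GM2 and GD2. Ewing sarcoma cells are known to carry some neural features.

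Total counts per library ran from 16083677 to 48949739, and 4 libraries lay farthest from the others of their group: replicate 3 of the A673 20-day treated, A673 3-day DMSO, CHLA10 20-day treated and CHLA10 20-day DMSO groups. All 12 Ewing sarcoma markers on a list were tested, and their summed level in CPM, the counts-per-million level on scaled library sizes, was lower in treated libraries in each comparison, with ranges that overlapped in CHLA10 at 20 days. It was 6100 to 6200 CPM in treated and 7630 to 7720 CPM in DMSO libraries of CHLA10 at 3 days, 4560 to 6820 and 6680 to 8700 CPM at 20 days, 3500 to 3580 and 4270 to 4390 CPM in A673 at 3 days, 2930 to 3080 and 4230 to 4440 CPM at 20 days and 6720 to 6900 and 8460 to 8580 CPM in TC32. In the same order 6, 7, 4, 9 and 4 of the 12 were called lower and 0, 0, 0, 0 and 1 higher. Of 10 genes that define mature neurons, 6 passed the filter, and their sum lay between 15.6 and 70.5 CPM. SLC17A6, which loads glutamate into synaptic vesicles, had no count in any library. In CHLA10 at 20 days the neuron-defining sum was 21.1 to 24.3 CPM in treated libraries, against 43.5 to 67 CPM in DMSO libraries. Of the 6 tested, 1 was called higher and 2 lower there (median log2 change 0.02), against 33.7% of all genes called. Treated and DMSO sums overlapped in CHLA10 at 3 days (35.8 to 70.5 against 60.4 to 63.9 CPM). They overlapped in A673 at 3 days (38.2 to 41.6 against 25.6 to 45.6 CPM) and at 20 days (18.7 to 28.4 against 27.5 to 30.8 CPM). In TC32 the sums were 15.6 to 17.6 against 22.4 to 28.2 CPM, without overlap. Schwann and glial, immune, endothelial and epithelial sums were under 21 CPM in CHLA10 and TC32. A673 had endothelial sums of 35.9 to 73.1 CPM, and its epithelial sum was 120 to 650 CPM in 20-day treated libraries, against 125 to 152 CPM in 20-day DMSO libraries. Fibroblast markers summed to 1470 to 3550 CPM in A673 20-day treated libraries, against 1110 to 1170 CPM in A673 20-day DMSO libraries. In the other 4 comparisons the fibroblast sum was lower in treated than in DMSO libraries, at 495 to 611 against 743 to 778 CPM in CHLA10 at 3 days, 501 to 767 against 927 to 1390 CPM at 20 days, 647 to 688 against 842 to 1090 CPM in A673 at 3 days and 386 to 444 against 747 to 827 CPM in TC32. The part of these markers in the results was not tested. In bulk RNA, fewer cells with a transcript and less transcript per cell cannot be told apart.

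Promoter windows of 250 bases before to 50 after a start site were found in RefSeq (GRCh38.p14) for 7 of the 10 genes, 12 windows in all. The 3 windows are shown for the cAMP response element in KIF5C and VGF and the repeated CCAAT boxes in TIAM1, with bases inside the annotated exons left off, 5′ to 3′ on the gene's own strand. Capitals mark, on either strand, the cAMP response element, spelled TGACGTCA, and the E-box, spelled CACGTG. Capitals also mark the CCAAT box, spelled by its name, and the TATA box, searched as TATAAA. None of the marked motifs overlaps another here.
KIF5C, chr2:148874977-148875226, plus strand: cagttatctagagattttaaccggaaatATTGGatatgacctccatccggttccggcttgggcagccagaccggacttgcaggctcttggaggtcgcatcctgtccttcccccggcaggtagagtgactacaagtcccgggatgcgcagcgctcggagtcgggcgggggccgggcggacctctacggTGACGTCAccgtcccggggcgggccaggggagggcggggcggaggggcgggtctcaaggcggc
VGF, chr7:101165594-101165819, minus strand: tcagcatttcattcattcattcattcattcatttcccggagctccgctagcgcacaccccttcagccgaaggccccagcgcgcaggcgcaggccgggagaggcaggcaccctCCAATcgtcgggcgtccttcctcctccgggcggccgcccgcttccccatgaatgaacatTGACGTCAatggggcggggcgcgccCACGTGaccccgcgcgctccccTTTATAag
TIAM1, chr21:31559088-31559337, minus strand: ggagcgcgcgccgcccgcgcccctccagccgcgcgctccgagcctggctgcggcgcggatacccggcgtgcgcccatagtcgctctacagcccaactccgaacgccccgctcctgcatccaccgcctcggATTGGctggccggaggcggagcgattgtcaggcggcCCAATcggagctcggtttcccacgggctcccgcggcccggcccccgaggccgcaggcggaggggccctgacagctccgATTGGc
The cAMP response element, the letters bound by CREB-family factors, lay 63 bases upstream of the KIF5C start site and 79 bases upstream of the VGF start site, and 1.85% of 35116 RefSeq windows held it. VGF also had the E-box 54 bases and the TATA box letters 32 bases upstream, held by 7.26% and 11.5% of windows. The TATA box letters were also found 199 bases upstream in OSBPL6 and 202 bases upstream in TFAP2B. In each of these genes the match was on the opposite strand, reading TTTATA on the gene's own strand. A half-site of RE1, the element bound by the neuronal silencer REST, began 10 bases upstream of the VGF start site, in bases not printed, and 0.259% of windows held it. TIAM1 had CCAAT boxes 120, 84 and 6 bases upstream, a motif found in 34.6% of windows and also present in KIF5C, VGF, MAP2 and TFAP2B. The GC box GGGCGG, present in 45% of windows, was found in KIF5C, VGF, TIAM1, OSBPL6 and EFR3B. The AP-2 letters GCCNNNGGC, not marked in the windows and able to overlap other motifs, were found in OSBPL6, EFR3B, TIAM1 and VGF and in 23.2% of windows. The tandem GGAAGGAA was in no window of these genes and in 3.67% of all windows. A match is a description of letters and not a measured binding site.

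The first comparison asked what 3 days of inhibitor did to the 10 genes in the line whose 20-day values chose them. In CHLA10 at 3 days, 6 of the 10 rose and 2 fell, while 29.8% of the 16713 genes tested were called in either direction by edgeR at adjusted p under 0.05 (14% higher and 15.7% lower). The 6 that rose were KIF5C, ATCAY, EFR3B, MAP2, TIAM1 and OSBPL6, and the 2 that fell were NSG2 and TFAP2B. Treated and DMSO libraries did not overlap for any of the 10, a separation that 54.9% of all genes showed. The median log2 change of the 10 was 2.62, beside -0.01 over all genes tested. In A673 at 3 days 5 rose and 3 fell, against 33.7% of all genes called (15.3% higher and 18.4% lower), and all 10 did not overlap, against 46.6% of all genes, with a median of 0.98. In A673 at 20 days 5 rose and 4 fell, against 39.7% called (19.7% higher and 19.9% lower), and 9 of the 10 did not overlap, against 46.4% of all genes, with a median of 0.44. In TC32 at 3 days 5 rose and 0 fell, against 45.1% called (22.3% higher and 22.8% lower), and 7 did not overlap, against 55.1% of all genes, with a median of 0.80. In CHLA10 at 20 days, the comparison that chose the genes, 8 were higher and 2 lower past the same threshold, beside 33.7% of all genes (16.5% higher and 17.2% lower), and the median was 4.24. That count followed from how the genes were chosen, and nothing is read from it. None of the 10 overlapped between the groups there, as for 43.2% of all genes. How TIAM1, VGF and B4GALNT1 entered the list is not stated. Whether their A673 20-day values took part is not known, so their part in the A673 20-day counts is description only. The increase of EFR3B at 3 days was already known when the list was made, so its part in the 3-day counts is description only.

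**Figure D1:**
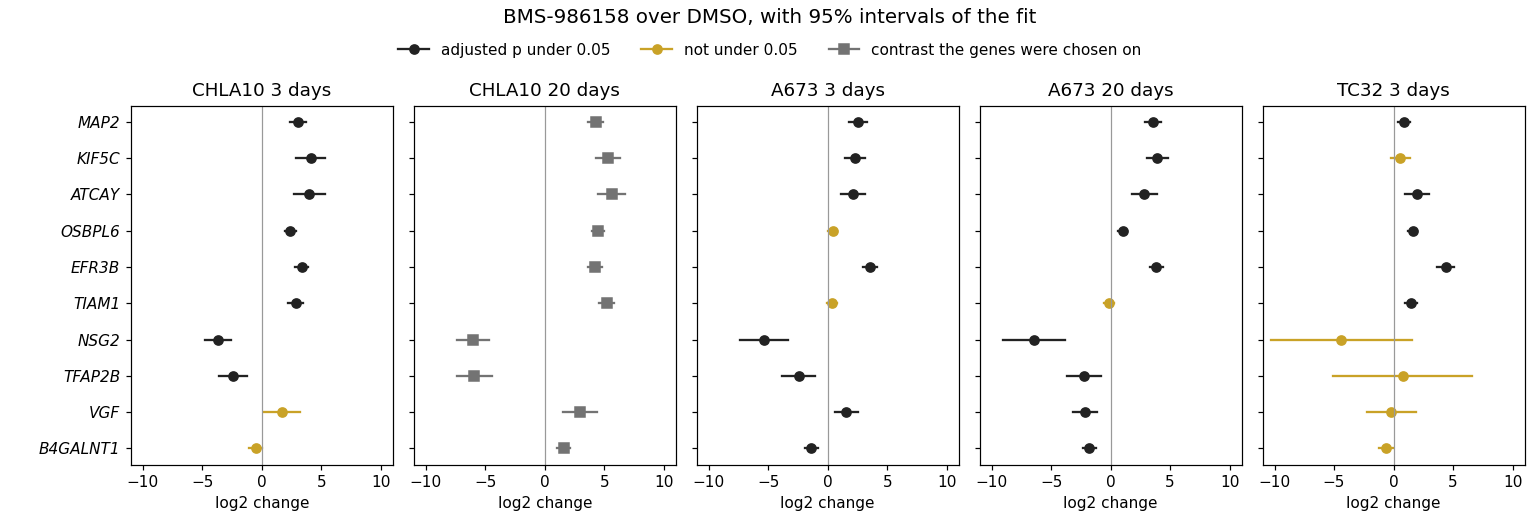
Log2 change of each gene under BMS-986158 against DMSO with its 95% interval (x axis, log2 scale) in 5 comparisons, with 1 row per gene. Black points passed adjusted p under 0.05, yellow points did not, and grey squares mark CHLA10 at 20 days, the comparison that chose the genes. EFR3B lies between 3.33 and 4.36 in all 5 panels, while VGF lies right of 0 in A673 at 3 days (1.55) and left of it at 20 days (-2.15).

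MAP2 (ENSG00000078018, chromosome 2, 209424058 to 209734118, plus strand, GRCh38, as for all positions that follow) rose in every line. CHLA10 had 8.98, 10.0 and 7.15 CPM in 3-day treated libraries, against 1.17, 0.741 and 1.32 CPM in 3-day DMSO libraries. The groups stood apart by 8.09-fold (log2 change 3.02 ± 0.32, edgeR adjusted p = 6.9e-08). A673 had 3.52, 3.27 and 3.38 CPM in 3-day treated libraries, against 1.06, 0.582 and 0.226 CPM in 3-day DMSO libraries, where replicate 3 was the lowest. At 20 days A673 reached 12.4, 12.6 and 7.5 CPM in treated libraries, against 1.25, 0.697 and 0.727 CPM in DMSO libraries. Both A673 differences were increases, with log2 changes of 2.54 ± 0.36 at 3 days (edgeR adjusted p = 5.6e-06) and 3.57 ± 0.32 at 20 days (edgeR adjusted p = 1.46e-09). TC32 already carried much MAP2, with 51.8, 77.5 and 80.6 CPM in treated libraries, against 36.1, 43.0 and 37.0 CPM in DMSO libraries. Its increase was 1.81-fold (log2 change 0.85 ± 0.25, edgeR adjusted p = 0.00562). CHLA10 at 20 days had 25.8, 32.9 and 31.1 CPM in treated libraries, against 2.35, 1.32 and 0.91 CPM in DMSO libraries, so even the lowest treated library lay above every 3-day treated library of that line.

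KIF5C (ENSG00000168280, chromosome 2, 148875250 to 149026759, plus strand), the kinesin-1 heavy chain, rose in CHLA10 and A673. CHLA10 had 9.46, 8.96 and 6.33 CPM in 3-day treated libraries, against 0.704, 0.395 and 0.356 CPM in 3-day DMSO libraries. This was a 17.2-fold increase (log2 change 4.10 ± 0.59, edgeR adjusted p = 1.3e-05). A673 had 26.1, 26.3 and 28.2 CPM in 3-day treated libraries, against 6.42, 5.45 and 5.05 CPM in 3-day DMSO libraries. After 20 days, A673 had 94.1, 97.1 and 54.2 CPM in treated libraries, against 5.45, 5.21 and 5.47 CPM in DMSO libraries. The A673 groups did not overlap at either time, with log2 changes of 2.26 ± 0.41 at 3 days (edgeR adjusted p = 0.000193) and 3.93 ± 0.43 at 20 days (edgeR adjusted p = 1.78e-07). TC32 had 27.4, 32.7 and 36.8 CPM in treated libraries, against 23.4, 24.2 and 18.6 CPM in DMSO libraries. These TC32 groups did not overlap, but the change of 0.55 (95% interval -0.24 to 1.34) did not pass the threshold (edgeR adjusted p = 0.255), and without the 4 most distant libraries, none of them from TC32, the adjusted p was 0.003. In CHLA10 the 20-day treated libraries had 18.8, 23.5 and 87.8 CPM, against 1.22, 0.425 and 1.71 CPM in the DMSO libraries, and treated replicate 3 was far above the other two. The fitted change of 5.30 there was 4.27 without that library.

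ATCAY (ENSG00000167654, chromosome 19, 3879864 to 3928079, plus strand), the gene of caytaxin, rose in every line. CHLA10 had 4.81, 5.21 and 6.11 CPM in 3-day treated libraries, against 0.41, 0.296 and 0.305 CPM in 3-day DMSO libraries, a log2 change of 3.98 ± 0.62 (edgeR adjusted p = 2.71e-05). A673 had 6.82, 8.77 and 6.48 CPM in 3-day treated libraries, against 1.59, 2.41 and 1.13 CPM in 3-day DMSO libraries. This was a 4.29-fold increase (log2 change 2.10 ± 0.49, edgeR adjusted p = 0.0017). At 20 days A673 had 4.5, 4.64 and 12.4 CPM in treated libraries, against 0.645, 1.14 and 1.26 CPM in DMSO libraries. The 20-day change in A673 was 2.84 ± 0.52 (edgeR adjusted p = 9.38e-05), and 2.18 without treated replicate 3, the highest library. TC32 had 6.32, 7.31 and 7.73 CPM in treated libraries, against 1.4, 2.27 and 1.73 CPM in DMSO libraries. The TC32 change was 1.97 ± 0.50 (edgeR adjusted p = 0.00221), and limma-voom placed it just outside the threshold (adjusted p = 0.0503). CHLA10 at 20 days had 22.4, 15.3 and 73.9 CPM in treated libraries, against 0.235, 0.85 and 1.25 CPM in DMSO libraries, and the fitted change of 5.60 was 4.62 without treated replicate 3.

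OSBPL6 (ENSG00000079156, chromosome 2, 178194481 to 178402891, plus strand) separated the lines by their starting level. CHLA10 had 13.4, 12.6 and 12.9 CPM in 3-day treated libraries, against 1.88, 2.57 and 2.9 CPM in 3-day DMSO libraries. The 5.26-fold increase (log2 change 2.40 ± 0.22, edgeR adjusted p = 4.2e-09) stood well clear of the spread. A673 started high, with 53.4, 53.6 and 52.4 CPM in 3-day treated libraries, against 46.9, 44.7 and 28.4 CPM in 3-day DMSO libraries. The A673 change at 3 days was 0.41 ± 0.18 and did not pass (edgeR adjusted p = 0.0747), although limma-voom (adjusted p = 0.00869), the replicate block and the fit without DMSO replicate 1 called it. After 20 days, A673 had 57.7, 58.0 and 45.5 CPM in treated libraries, against 24.0, 26.6 and 30.2 CPM in DMSO libraries, a 2.00-fold increase (log2 change 1.00 ± 0.18, edgeR adjusted p = 6.46e-05). TC32 had 25.6, 30.9 and 30.2 CPM in treated libraries, against 7.98, 11.3 and 9.32 CPM in DMSO libraries. It rose 3.02-fold there (log2 change 1.60 ± 0.19, edgeR adjusted p = 2.04e-07). In CHLA10 the 20-day treated libraries had 29.9, 29.7 and 34.7 CPM, against 1.22, 0.897 and 2.28 CPM in the DMSO libraries, so its treated level came to lie beside that of treated TC32.

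EFR3B (ENSG00000084710, chromosome 2, 25042130 to 25159137, plus strand), the membrane anchor of PI4KA, had the most uniform log2 changes of the 10. Its increase at 3 days was already known when the list was made, so its 3-day p-values and rank are description only. CHLA10 had 33.6, 35.9 and 35 CPM in 3-day treated libraries, against 2.99, 3.56 and 3.81 CPM in 3-day DMSO libraries, a log2 change of 3.33 ± 0.27 (edgeR adjusted p = 9.91e-10). A673 had 20.5, 22.1 and 21.9 CPM in 3-day treated libraries, against 2.3, 1.12 and 2.07 CPM in 3-day DMSO libraries. EFR3B was the gene with the 17th highest change of all 16713 in A673 at 3 days (log2 change 3.57 ± 0.29, edgeR adjusted p = 7.52e-10). At 20 days A673 had 34.2, 30.9 and 57.5 CPM in treated libraries, against 3.65, 2.68 and 2.23 CPM in DMSO libraries, a change of 3.83 ± 0.28 (edgeR adjusted p = 3.38e-11). TC32 had 12.4, 14.4 and 13.5 CPM in treated libraries, against 0.391, 1.09 and 0.399 CPM in DMSO libraries. The TC32 change of 4.36 ± 0.34 (edgeR adjusted p = 2.62e-10) was 5.07 without DMSO replicate 2, the highest of its group. CHLA10 at 20 days had 44.9, 51.7 and 81.2 CPM in treated libraries, against 2.39, 3.68 and 3.47 CPM in DMSO libraries, and all 15 treated libraries of the study lay above all 15 DMSO libraries.

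TIAM1 (ENSG00000156299, chromosome 21, 31118416 to 31559977, minus strand), the RAC1 activator, rose in CHLA10 and TC32. CHLA10 had 3.97, 3.52 and 2.82 CPM in 3-day treated libraries, against 0.293, 0.247 and 0.864 CPM in 3-day DMSO libraries. The change of 2.85 ± 0.30 (edgeR adjusted p = 6.1e-08) was 3.65 without DMSO replicate 3, the highest of its group. TC32 had 6.87, 9.77 and 8.53 CPM in treated libraries, against 3.35, 2.86 and 2.86 CPM in DMSO libraries, a 2.77-fold increase (log2 change 1.47 ± 0.24, edgeR adjusted p = 1.21e-05). A673 had 15.3, 18.6 and 16.8 CPM in 3-day treated libraries, against 11.2, 13.2 and 14.7 CPM in 3-day DMSO libraries. After 20 days, A673 had 12.9, 17.1 and 16.7 CPM in treated libraries, against 16.6, 17.5 and 16.6 CPM in DMSO libraries. Neither A673 difference passed, with changes of 0.37 at 3 days (95% interval -0.06 to 0.81, edgeR adjusted p = 0.177) and -0.12 at 20 days (95% interval -0.55 to 0.31, edgeR adjusted p = 0.696), and only the 20-day libraries overlapped. The 3-day A673 change was called by limma-voom (adjusted p = 0.0408) and without the 4 most distant libraries (adjusted p = 0.0321). In CHLA10 the 20-day treated libraries had 16.2, 16 and 18.7 CPM, against 0.657, 0.472 and 0.228 CPM in the DMSO libraries, and those treated libraries lay beside the upper A673 libraries.

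NSG2 (ENSG00000170091, chromosome 5, 174045604 to 174243501, plus strand), the endosomal protein of neurons, fell in CHLA10 and A673. CHLA10 had 1.75, 1.29 and 6.37 CPM in 3-day treated libraries, against 42.3, 38.4 and 41.1 CPM in 3-day DMSO libraries. The decrease was 12.9-fold (log2 change -3.69 ± 0.54, edgeR adjusted p = 1.86e-05), and without treated replicate 3, the library with the most NSG2 left, the log2 change was -4.73. A673 started far lower, with 0, 0.159 and 0 CPM in 3-day treated libraries, against 1.71, 2.87 and 1.51 CPM in 3-day DMSO libraries. At 20 days A673 had 0.0529, 0 and 0 CPM in treated libraries, against 1.47, 2.2 and 2.76 CPM in DMSO libraries. These A673 levels rest on 4 treated counts at 3 days, against 138 counts in DMSO, and on 1 treated count at 20 days, against 158 counts in DMSO. The ratio of the DMSO to the treated level was 47 (95% counting interval 18 to 175) at 3 days and 111 (19.6 to 4410) at 20 days. Both decreases passed, with edgeR adjusted p = 0.000208 at 3 days and 0.000245 at 20 days, and the fitted 3-day change of -5.35 lay between -8.49 and -4.37 when 1 library was left out. TC32 had no NSG2 count in its treated libraries, against 0.223, 0.0987 and 0 CPM in DMSO libraries, 6 counts in all. The TC32 decrease was not called by edgeR (adjusted p = 0.224) but was by DESeq2 (adjusted p = 0.0392). At that depth the call depended on the method. CHLA10 at 20 days had 0.894, 0.554 and 0.204 CPM in treated libraries, against 54.3, 41.0 and 15.1 CPM in DMSO libraries, where replicate 3 was low.

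TFAP2B (ENSG00000008196, chromosome 6, 50818723 to 50847613, plus strand), the AP-2 transcription factor, fell with NSG2 in CHLA10 and A673. CHLA10 had 4.89, 3.3 and 27.9 CPM in 3-day treated libraries, against 66.5, 66.6 and 63.8 CPM in 3-day DMSO libraries. Replicate 3 was again the treated library with the most transcript left, and the log2 change of -2.45 ± 0.57 (edgeR adjusted p = 0.00213) was -4.00 without it. With only the CHLA10 3-day groups in the fit the adjusted p was 0.0777. A673 had 0.682, 0.916 and 1.26 CPM in 3-day treated libraries, against 4.83, 6.12 and 5.58 CPM in 3-day DMSO libraries, a log2 change of -2.45 ± 0.67 (edgeR adjusted p = 0.00718). After 20 days, A673 had 0.424, 1.14 and 2.25 CPM in treated libraries, against 4.05, 7.01 and 7.22 CPM in DMSO libraries. The 20-day change of -2.25 ± 0.69 (edgeR adjusted p = 0.0122) was -1.81 without treated replicate 1 (adjusted p = 0.0719) and -2.99 without treated replicate 3. TC32 held almost none, with 4 counts in treated libraries and 2 counts in DMSO libraries, and no change could be seen (edgeR adjusted p = 0.863). In CHLA10 the 20-day treated libraries had 1.48, 0.665 and 0.285 CPM, against 65.6, 54.4 and 29.6 CPM in the DMSO libraries, and the fitted change of -5.93 was -6.68 without treated replicate 1.

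VGF (ENSG00000128564, chromosome 7, 101162509 to 101165593, minus strand), the neuropeptide precursor, rose in A673 at 3 days and fell there at 20 days. A673 had 469, 466 and 443 CPM in 3-day treated libraries, against 232, 174 and 66.1 CPM in 3-day DMSO libraries. The 3-day change of 1.55 ± 0.46 (edgeR adjusted p = 0.012) was 1.18 without DMSO replicate 3, the lowest library, and then missed the threshold (adjusted p = 0.0524). At 20 days A673 had 20.1, 16.9 and 54.2 CPM in treated libraries, against 139, 133 and 133 CPM in DMSO libraries. The 20-day decrease was 4.43-fold (log2 change -2.15 ± 0.48, edgeR adjusted p = 0.00102), or -2.86 on the log2 scale without treated replicate 3, the highest library. How VGF was chosen is not stated, so this 20-day decrease is description only. CHLA10 had far less, with 3.93, 4.14 and 3.82 CPM in 3-day treated libraries, against 1.52, 0.938 and 1.22 CPM in 3-day DMSO libraries. Those groups did not overlap, but the change of 1.70 ± 0.72 did not pass (edgeR adjusted p = 0.0818), while DESeq2 (adjusted p = 0.0165) and 3 other settings called it. TC32 had 1.04, 0.835 and 0.8 CPM in treated libraries, against 1.34, 0.888 and 0.799 CPM in DMSO libraries, a change of -0.18 with a 95% interval of -2.22 to 1.85 (edgeR adjusted p = 0.911). CHLA10 at 20 days had 7.7, 1.92 and 15.8 CPM in treated libraries, against 0.891, 0.614 and 1.82 CPM in DMSO libraries, a spread in which the lowest treated library nearly met the highest DMSO library. The fitted change of 2.96 there was 2.15 without treated replicate 3.

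B4GALNT1 (ENSG00000135454, chromosome 12, 57623410 to 57633355, minus strand), the GM2 and GD2 synthase, fell in A673. It shares exon bases with SLC26A10 on the opposite strand and the strand setting of the counting is not known, so its level is uncertain. A673 had 8.87, 12.1 and 11.4 CPM in 3-day treated libraries, against 24.0, 26.1 and 34.9 CPM in 3-day DMSO libraries, a 2.62-fold decrease (log2 change -1.39 ± 0.26, edgeR adjusted p = 0.00016). After 20 days, A673 had 11, 8.83 and 10.5 CPM in treated libraries, against 31.5, 38.3 and 34.4 CPM in DMSO libraries. The 20-day decrease was 3.42-fold (log2 change -1.78 ± 0.26, edgeR adjusted p = 5.18e-06), and the A673 groups did not overlap at either time. How B4GALNT1 was chosen is not stated, so its A673 20-day decrease is description only. CHLA10 had 10.1, 9.4 and 9.28 CPM in 3-day treated libraries, against 13.4, 14.2 and 13.2 CPM in 3-day DMSO libraries. TC32 had 2.77, 4.42 and 4.21 CPM in treated libraries, against 5.08, 6.61 and 6.19 CPM in DMSO libraries. Neither passed, at -0.51 ± 0.26 in CHLA10 (edgeR adjusted p = 0.15) and -0.65 ± 0.29 in TC32 (edgeR adjusted p = 0.0673), although all treated libraries lay below all DMSO libraries in each line and the replicate block called each (adjusted p = 0.0247 in CHLA10 and 0.00702 in TC32). Fits with only those groups also called each (edgeR adjusted p = 0.00246 in CHLA10 and 0.0283 in TC32). So did the fit without the 4 most distant libraries (edgeR adjusted p = 0.00992 and 0.00325), and DESeq2 called TC32 (adjusted p = 0.0487). The other settings, 14 in CHLA10 and 13 in TC32, called neither. CHLA10 at 20 days lay the other way, with 20.4, 14.1 and 32.7 CPM in treated libraries, against 4.64, 5.71 and 11.8 CPM in DMSO libraries.

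**Figure D2:**
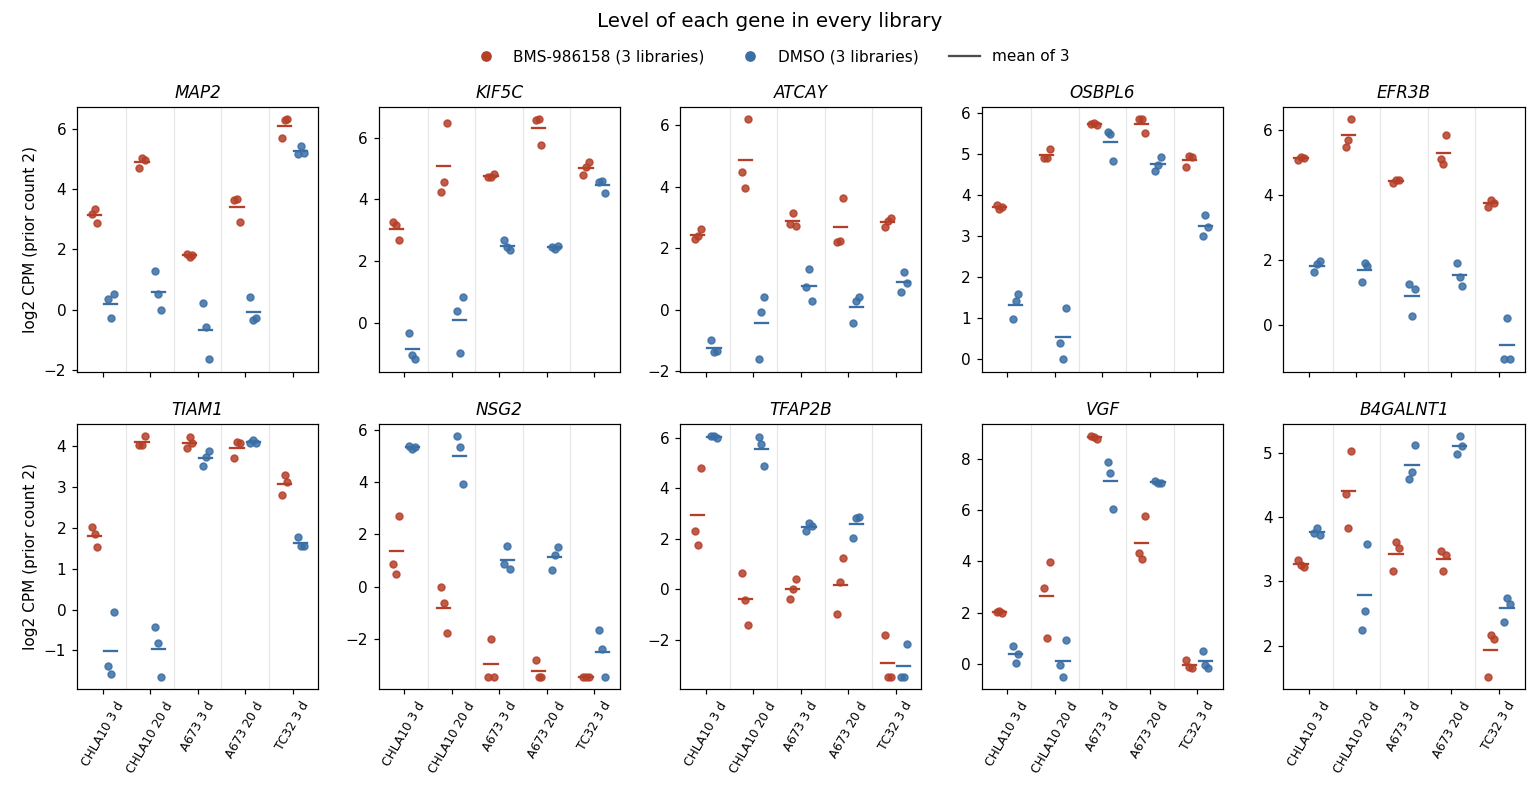
Level of each gene in every library as log2 CPM (y axis, prior count 2), 1 panel per gene, with treated libraries (red) left of DMSO libraries (blue) in each line and time (x axis). The treated libraries of EFR3B lie above all DMSO libraries, and TIAM1 in A673 lies near the level that CHLA10 reached at 20 days of treatment.

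Several of these responses differed between lines by a test of the difference itself, the interaction of treatment and line at 3 days. The A673 response was smaller than the CHLA10 response for OSBPL6 (difference -1.98 ± 0.28, edgeR adjusted p = 5.08e-05) and TIAM1 (difference -2.47 ± 0.38, edgeR adjusted p = 0.000127), 2 of the 10 genes, against 10.5% of all genes called (4.85% higher and 5.65% lower). The TC32 response was smaller than the CHLA10 response for 3 of the 10, against 13.8% of all genes (7.34% higher and 6.47% lower). These were MAP2 (difference -2.16 ± 0.41, edgeR adjusted p = 0.00103), KIF5C (difference -3.55 ± 0.72, edgeR adjusted p = 0.0025) and TIAM1 (difference -1.38 ± 0.39, edgeR adjusted p = 0.0198). The KIF5C difference missed the threshold with limma-voom (adjusted p = 0.0572), and the TIAM1 difference did so without any 1 of 4 libraries, at most 0.0976. For EFR3B the differences from CHLA10 were 0.24 in A673 (95% interval -0.55 to 1.03) and 1.03 in TC32 (95% interval 0.11 to 1.95), neither called. Both sets of differences share the CHLA10 libraries. The genes were also chosen on a change in CHLA10, so smaller responses in the other lines could follow from that choice. Nothing is therefore read from the direction of these differences between lines. In A673, the 20-day response differed from the 3-day response for VGF, 1 of the 10 genes, against 7.26% of all genes (4.33% higher and 2.93% lower). The VGF difference was -3.69 ± 0.66 (edgeR adjusted p = 0.00161), as it rose at 3 days and fell at 20 days. Since A673 20-day values may have helped to choose VGF, this difference is description only. KIF5C in A673 had a difference of 1.67 ± 0.57 between 20 and 3 days that did not pass (edgeR adjusted p = 0.0766) but did with DESeq2 (adjusted p = 0.0213), in the fit limited to those groups, under the replicate block, without treated 20-day replicate 3 and without the 4 most distant libraries.

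In CHLA10 the 20-day response minus the 3-day response was 1.25 for MAP2, 1.20 for KIF5C, 1.62 for ATCAY, 2.06 for OSBPL6, 0.89 for EFR3B, 2.33 for TIAM1, 1.26 for VGF and 2.11 for B4GALNT1 on the log2 scale. It was -2.35 for NSG2 and -3.48 for TFAP2B. All 10 differences thus had the sign of the 20-day change that chose the genes, and nothing is read from them or from the 6.32% of all genes called there (3.35% higher and 2.97% lower). TIAM1 had a difference of 1.53 without 3-day DMSO replicate 3, and TFAP2B one of -1.93 without 3-day treated replicate 3. The 20-day response of A673 minus that of CHLA10 was -0.70 for MAP2, -1.38 for KIF5C, -2.76 for ATCAY, -3.45 for OSBPL6, -0.39 for EFR3B, -5.30 for TIAM1, -0.41 for NSG2, 3.68 for TFAP2B, -5.11 for VGF and -3.38 for B4GALNT1. These differences too contain the changes that chose the genes, so nothing is read from the 21.9% of all genes called there (11.4% higher and 10.5% lower). The DMSO groups of 20 and 3 days were also set side by side, since a change there would alter both responses. In A673, 0 of the 10 genes differed by edgeR, against 6.1% of all genes (3.02% higher and 3.08% lower), and 1 did not overlap, against 21% of all genes. At unadjusted p under 0.05 edgeR had 2, OSBPL6 (0.00371) and EFR3B (0.0358), and DESeq2 called 1 after adjustment. In CHLA10, the 20-day minus 3-day DMSO difference was -0.78 for OSBPL6 and -0.89 for B4GALNT1 and lay between -0.40 and 1.19 for the other 8, with 15.1% of all genes called (8.05% higher and 7.06% lower). The libraries did not overlap for 1 of the 10 genes, B4GALNT1, against 40.8% of all genes, and since the 20-day DMSO libraries took part in choosing the genes these values are described only.

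The lines entered the experiment with different levels of these genes. In 3-day DMSO libraries, A673 differed from CHLA10 in 9 of the 10 genes, 6 higher and 3 lower, against 61.2% of all genes (31.5% higher and 29.7% lower), and 9 did not overlap, against 67.7% of all genes. TC32 differed from CHLA10 in 9 as well, 5 higher and 4 lower, against 61.1% of all genes (31% higher and 30.1% lower), and 9 did not overlap, against 71.9% of all genes. VGF averaged 157 ± 84.2 CPM in A673 and 1.23 ± 0.293 CPM in CHLA10 (SD, n = 3 each), a 129-fold difference (edgeR adjusted p = 6.57e-09). MAP2 averaged 38.7 ± 3.75 CPM in TC32 and 1.08 ± 0.302 CPM in CHLA10 (SD, n = 3 each), 35.9-fold apart (edgeR adjusted p = 2.86e-13). TIAM1 averaged 13 ± 1.75 CPM in A673 and 0.468 ± 0.344 CPM in CHLA10 (SD, n = 3 each), 27.3-fold apart (edgeR adjusted p = 9.61e-14). The DMSO difference and the response difference between lines use the same 3-day DMSO libraries with opposite sign, so they are tied by construction. The genes were also chosen on a change in CHLA10. A link between starting level and response was therefore not tested. The values are given as a description. MAP2, KIF5C and TIAM1 in TC32 and TIAM1 and OSBPL6 in A673 had a higher DMSO level than CHLA10 and a called difference in response. VGF, KIF5C (11.7-fold) and ATCAY (5.05-fold) also started higher in A673. Their responses differed from those of CHLA10 by -0.15, -1.84 and -1.89, none called (edgeR adjusted p = 0.949, 0.123 and 0.143). The KIF5C and ATCAY differences were called with only those groups in the fit (edgeR adjusted p = 0.00162 and 0.00888). The replicate block and the fit without the 4 most distant libraries also called both. DESeq2 called KIF5C (adjusted p = 0.0195), and no setting called VGF. B4GALNT1 (2.08-fold) started higher in A673 too, with a response difference of -0.88 (edgeR adjusted p = 0.124). With only those groups in the fit it was called (edgeR adjusted p = 0.013). In TC32, ATCAY (5.34-fold) and OSBPL6 (3.87-fold) started higher, with response differences of -2.01 and -0.8 (edgeR adjusted p = 0.105 and 0.0622). DESeq2 called both TC32 differences (adjusted p = 0.0401 and 0.0301). The DMSO levels of TFAP2B and NSG2 ran the other way, lower in A673 and TC32 than in CHLA10. TFAP2B had 2 counts in the TC32 DMSO libraries and 3740 counts in the CHLA10 DMSO libraries, a ratio of CHLA10 to TC32 of 1750 (95% counting interval 483 to 14400). NSG2 had 6 counts in the TC32 DMSO libraries and 2307 counts in the CHLA10 DMSO libraries, a ratio of CHLA10 to TC32 of 359 (95% counting interval 165 to 979). These intervals cover counting error only.

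Per length of transcript, in CPM per kilobase of annotated exon, the genes with the highest mean level in CHLA10 20-day treated libraries were ATCAY (6.89), EFR3B (5.59) and KIF5C (4.71). That order rests on replicate 3, as ATCAY had 4.14, 2.84 and 13.7, EFR3B 4.24, 4.88 and 7.66 and KIF5C 2.04, 2.56 and 9.53 in the 3 libraries, and EFR3B was the highest of the 3 genes in replicates 1 and 2. In CHLA10 20-day DMSO libraries the highest per length were NSG2 (9.32) and TFAP2B (8.11), and all others lay at or below 0.924. In A673 VGF had the highest mean level per length in the 3-day groups and in 20-day DMSO libraries, with a mean of 170 in 3-day treated libraries, against 58.2 in 3-day DMSO libraries. In A673 20-day treated libraries VGF had 7.44, 6.25 and 20.1 and KIF5C 10.2, 10.5 and 5.89, so which was higher differed between libraries. Ordered by mean CPM over the 10 groups, MAP2 was highest in TC32 treated, then TC32 DMSO, then CHLA10 20-day treated libraries, and these 3 groups did not overlap. Below them A673 20-day and CHLA10 3-day treated libraries overlapped, and all 4 CHLA10 and A673 DMSO groups overlapped their neighbours. KIF5C was highest in A673 20-day treated libraries (81.8 ± 23.9 CPM, SD, n = 3), which overlapped CHLA10 20-day treated libraries (43.4 ± 38.6 CPM, SD, n = 3). The 4 highest TIAM1 groups, CHLA10 20-day treated, A673 3-day treated, A673 20-day DMSO and A673 20-day treated, all overlapped, between 12.9 and 18.7 CPM.

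Among themselves the 10 genes fell into patterns over the 10 group means of log2 CPM, which share libraries and lines and are given as a description. OSBPL6 and TIAM1 ran closest (Pearson r = 0.97), followed by NSG2 and TFAP2B (0.93), KIF5C and ATCAY (0.84) and KIF5C and OSBPL6 (0.82). The strongest negative pairs were KIF5C and NSG2 (-0.96), KIF5C and TFAP2B (-0.87) and MAP2 and TFAP2B (-0.82). Other tested genes were searched for the closest match to each of the 10. The search left out genes without a symbol and clone, placeholder and noncoding names. It also left out every symbol ending in P or in P and digits, which removed protein-coding genes such as MAP2. Of the other genes searched, the most like TIAM1 and OSBPL6 was PPM1L, a protein phosphatase gene (0.968 and 0.979). MAP2 was most like GMDS (0.971) and SFI1 (0.968), KIF5C most like PPDPF (0.985) and PRKAR2B (0.961), ATCAY most like GFPT2 (0.97) and H1-10 (0.95) and EFR3B most like MAK (0.977) and EEPD1 (0.973). NSG2 was most like PKHD1 (0.994) and KIF19 (0.982), TFAP2B most like SCIN (0.976) and MUC3A (0.97), VGF most like IGSF1 (0.978) and PDLIM3 (0.976) and B4GALNT1 most like SSC5D (0.939) and RAB39A (0.904).

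Genes related to the 10 by role were then counted, from lists that leave the 10 out. Shares called are given in the order CHLA10 at 3 and 20 days, A673 at 3 and 20 days and TC32, beside 29.8%, 33.7%, 33.7%, 39.7% and 45.1% of all genes. Among 20 other genes of the neuronal cytoskeleton, 10 rose and 2 fell in CHLA10 at 20 days (median log2 change 0.94, beside -0.02 over all genes), and 2 rose and 2 fell at 3 days. NEFL, the light neurofilament chain, rose in CHLA10 at 20 days to 4.21 ± 0.659 CPM in treated libraries, against 0.544 ± 0.139 CPM in DMSO libraries (SD, n = 3 each, log2 change 2.93 ± 0.35, edgeR adjusted p = 6.22e-07). MAP1B, a partner of MAP2 on microtubules, rose there to 141 ± 49.8 CPM in treated libraries, against 31.9 ± 19 CPM in DMSO libraries (SD, n = 3 each, log2 change 2.15 ± 0.33, edgeR adjusted p = 2.72e-05). GAP43, a protein of growing axons, had 0.0389 to 0.734 CPM in the same treated libraries and no count in the DMSO libraries. In A673 6 rose and 2 fell at 3 days and 7 rose and 4 fell at 20 days, and in TC32 5 rose and 1 fell. The shares of the cytoskeleton list called were 20%, 60%, 40%, 55% and 30%, below that of all genes in CHLA10 at 3 days and in TC32. INA, another neuronal intermediate filament, rose in A673 at 20 days to 210 ± 23.1 CPM in treated libraries, against 64.7 ± 18.9 CPM in DMSO libraries (SD, n = 3 each, log2 change 1.70 ± 0.21, edgeR adjusted p = 8.44e-07). NEFM, the medium neurofilament chain, fell in the same comparison (-1.97 ± 0.36, edgeR adjusted p = 0.000141). Without the 4 most distant libraries the list had 4 higher and 5 lower in CHLA10 at 3 days, 12 and 3 in A673 at 3 days and 8 and 4 in TC32.

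The 29 genes of the presynaptic machinery had more increases than decreases in CHLA10 and the reverse in A673, a difference that was not itself tested. In CHLA10 10 rose and 2 fell at 3 days and 12 rose and 3 fell at 20 days, with medians of 0.37 and 0.73. In A673 3 rose and 8 fell at 3 days and 8 rose and 10 fell at 20 days, with medians of -0.11 and -0.55, and in TC32 8 rose and 4 fell, with a median of 0.00. The shares called were 41.4%, 51.7%, 37.9%, 62.1% and 41.4%. SYN1, which tethers synaptic vesicles, rose in CHLA10 at 20 days (2.09 ± 0.28, edgeR adjusted p = 1.28e-06), to 4.36 to 8.68 CPM in treated libraries, against 1.23 to 1.82 CPM in DMSO libraries. SV2B, a membrane protein of those vesicles, fell in every line, for example in CHLA10 at 20 days to 2.01 ± 1.19 CPM in treated libraries, against 26.8 ± 10.1 CPM in DMSO libraries (SD, n = 3 each, log2 change -3.73 ± 0.36, edgeR adjusted p = 7.51e-09). The counts of 20 neuronal transcription and RNA factors were 2 higher and 4 lower in CHLA10 at 3 days, 4 and 5 at 20 days, 1 and 9 in A673 at 3 days, 1 and 10 at 20 days and 2 and 7 in TC32. The shares called were 30%, 45%, 50%, 55% and 45%, close to those of all genes in CHLA10 at 3 days and in TC32. NEUROD6, a transcription factor of excitatory neurons, fell in CHLA10 at 20 days to 0.79 ± 0.572 CPM in treated libraries, against 23.8 ± 7.55 CPM in DMSO libraries (SD, n = 3 each, log2 change -4.89 ± 0.40, edgeR adjusted p = 1.24e-09), and in TC32 by a log2 change of -4.98 ± 0.37 (edgeR adjusted p = 2.62e-10). Without the 4 most distant libraries the factors had 1 higher and 7 lower in CHLA10 at 20 days.

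Partners of single members gave smaller lists. All 7 other genes of the EFR3 and PI4KA complex were called in CHLA10 at 3 days, 5 higher and 2 lower, and 4 rose and 2 fell at 20 days. In A673 5 rose and 1 fell at each time, and in TC32 5 rose and 0 fell. The shares called were 100%, 85.7%, 85.7%, 85.7% and 71.4%. HYCC1, a subunit of that complex, rose in CHLA10 at 3 days to 68.6 ± 8.04 CPM in treated libraries, against 23.7 ± 2.63 CPM in DMSO libraries (SD, n = 3 each, log2 change 1.54 ± 0.14, edgeR adjusted p = 6.85e-09). PI4KA itself rose there by 0.72 ± 0.09 (edgeR adjusted p = 6.38e-07) and in TC32 by 1.14 ± 0.09 (edgeR adjusted p = 2.62e-10). Other genes of the list fell. TTC7B changed in A673 by -0.99 ± 0.10 at 3 days (edgeR adjusted p = 4.04e-08) and -1.07 ± 0.10 at 20 days (edgeR adjusted p = 4.67e-09). TMEM150A changed in CHLA10 at 20 days by -0.99 ± 0.18 (edgeR adjusted p = 7.32e-05). Of 12 kinesin-1 motors and adaptors 3 rose and 0 fell in CHLA10 at 3 days, 2 and 2 at 20 days, 4 and 2 in A673 at 3 days, 4 and 1 at 20 days and 5 and 1 in TC32. The shares called were 25%, 33.3%, 50%, 41.7% and 50%, at or below those of all genes in CHLA10. MAPK8IP1, a kinesin cargo adaptor, rose in CHLA10 at 20 days (1.65 ± 0.21, edgeR adjusted p = 1.09e-06), with 24.4 to 50.2 CPM in treated libraries, against 8.31 to 14.2 CPM in DMSO libraries. KLC3, of the same list, fell in A673 at 3 days (-4.14 ± 0.43, edgeR adjusted p = 4.74e-08). It had 0.0797 to 0.284 CPM in treated libraries there, against 2.15 to 3.08 CPM in DMSO libraries. Without the 4 most distant libraries the kinesin list had 5 higher and 0 lower in CHLA10 at 3 days and 4 and 3 at 20 days.

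Of 11 other oxysterol-binding proteins 4 rose and 0 fell in CHLA10 at 3 days, 1 and 1 at 20 days, 2 and 1 in A673 at 3 days, 4 and 1 at 20 days and 5 and 1 in TC32. The shares called were 36.4%, 18.2%, 27.3%, 45.5% and 54.5%, below those of all genes in CHLA10 at 20 days and A673 at 3 days. OSBPL10 was called in CHLA10 at both times, with 13.8 to 21.4 CPM in 20-day treated libraries, against 3.42 to 8.25 CPM in 20-day DMSO libraries (log2 change 1.66 ± 0.38, edgeR adjusted p = 0.00127). Of 19 RAC exchange factors and partners 3 rose and 3 fell in CHLA10 at 3 days, 2 and 7 at 20 days, 3 and 8 in A673 at 3 days, 5 and 8 at 20 days and 4 and 6 in TC32. The shares called were 31.6%, 47.4%, 57.9%, 68.4% and 52.6%. ARHGEF6, another exchange factor for RAC1, fell in CHLA10 at 20 days (-1.01 ± 0.17, edgeR adjusted p = 4.44e-05), to 35.2 ± 12.6 CPM in treated libraries, against 70.7 ± 6.93 CPM in DMSO libraries (SD, n = 3 each). Of 4 tested genes with the BCH domain of ATCAY 1 fell in A673 at 3 days (0 with DESeq2), 1 rose and 1 fell there at 20 days and 2 rose in TC32 (1 with DESeq2). Without the 4 most distant libraries the oxysterol-binding list had 7 higher and 0 lower in CHLA10 at 3 days and 4 and 2 in A673 at 3 days.

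Around VGF, 10 other granins and prohormone-processing genes had 3 higher and 1 lower in CHLA10 at 3 days, 5 and 0 at 20 days, 2 and 0 in A673 at 3 days, 1 and 3 at 20 days and 1 and 4 in TC32. The shares of this list called were 40%, 50%, 20%, 40% and 50%. CPE, the carboxypeptidase that trims neuropeptides, rose in CHLA10 at 20 days to 42.2 ± 18.9 CPM in treated libraries, against 13.6 ± 2.22 CPM in DMSO libraries (SD, n = 3 each, log2 change 1.64 ± 0.18, edgeR adjusted p = 1.25e-07). CHGB, a chromogranin of secretory granules, fell in A673 at 20 days (-1.48 ± 0.41, edgeR adjusted p = 0.00482), to 5.72 to 11.7 CPM in treated libraries, against 21.5 to 22.8 CPM in DMSO libraries. SCG2, a secretogranin, fell in TC32 to 4.25 ± 0.904 CPM in treated libraries, against 58.1 ± 2.51 CPM in DMSO libraries (SD, n = 3 each, log2 change -3.77 ± 0.29, edgeR adjusted p = 1.68e-10). Around B4GALNT1, 11 other tested genes of ganglioside synthesis had 1 higher and 2 lower in CHLA10 at 3 days, 2 and 0 at 20 days, 0 and 5 in A673 at 3 days, 2 and 3 at 20 days and 4 and 3 in TC32. The shares of the ganglioside list called were 27.3%, 18.2%, 45.5%, 45.5% and 63.6%. ST8SIA5, a sialyltransferase of complex gangliosides, fell in A673 at 20 days to 1.95 ± 0.198 CPM in treated libraries, against 32.5 ± 7.48 CPM in DMSO libraries (SD, n = 3 each, log2 change -4.05 ± 0.36, edgeR adjusted p = 1.33e-09). Without the 4 most distant libraries the granin list had 5 higher and 2 lower in A673 at 3 days and 3 and 4 at 20 days, and the ganglioside list 2 and 5 in CHLA10 at 3 days.

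Of 5 tested AP-2 factors and their KCTD partners 0 rose and 1 fell in CHLA10 at 3 days, 0 were called at 20 days, 0 rose and 2 fell in A673 at each time and 1 rose and 1 fell in TC32. The shares of this short list called were 20%, 0%, 40%, 40% and 40%. TFAP2A, the close relative of TFAP2B, rose in TC32 to 166 ± 4.35 CPM in treated libraries, against 47.3 ± 2.26 CPM in DMSO libraries (SD, n = 3 each, log2 change 1.81 ± 0.34, edgeR adjusted p = 0.00018). KCTD15, a repressor of AP-2 factors, fell in A673 at 3 days to 7.12 ± 1.62 CPM in treated libraries, against 23.8 ± 6.28 CPM in DMSO libraries (SD, n = 3 each, log2 change -1.73 ± 0.39, edgeR adjusted p = 0.00125). Of the 2 other genes of the NSG2 family, 1 fell in CHLA10 at 20 days, 1 in A673 at each time and 2 in TC32. NSG1, the close relative of NSG2, fell in TC32 to 1.24 ± 0.602 CPM in treated libraries, against 9.44 ± 1.34 CPM in DMSO libraries (SD, n = 3 each, log2 change -2.93 ± 0.43, edgeR adjusted p = 4.14e-06). DESeq2 called 1 AP-2 or KCTD gene lower in CHLA10 at 20 days, and without the 4 most distant libraries 0 were higher and 2 lower there, with 1 higher and 3 lower in A673 at 20 days.

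**Figure D3:**
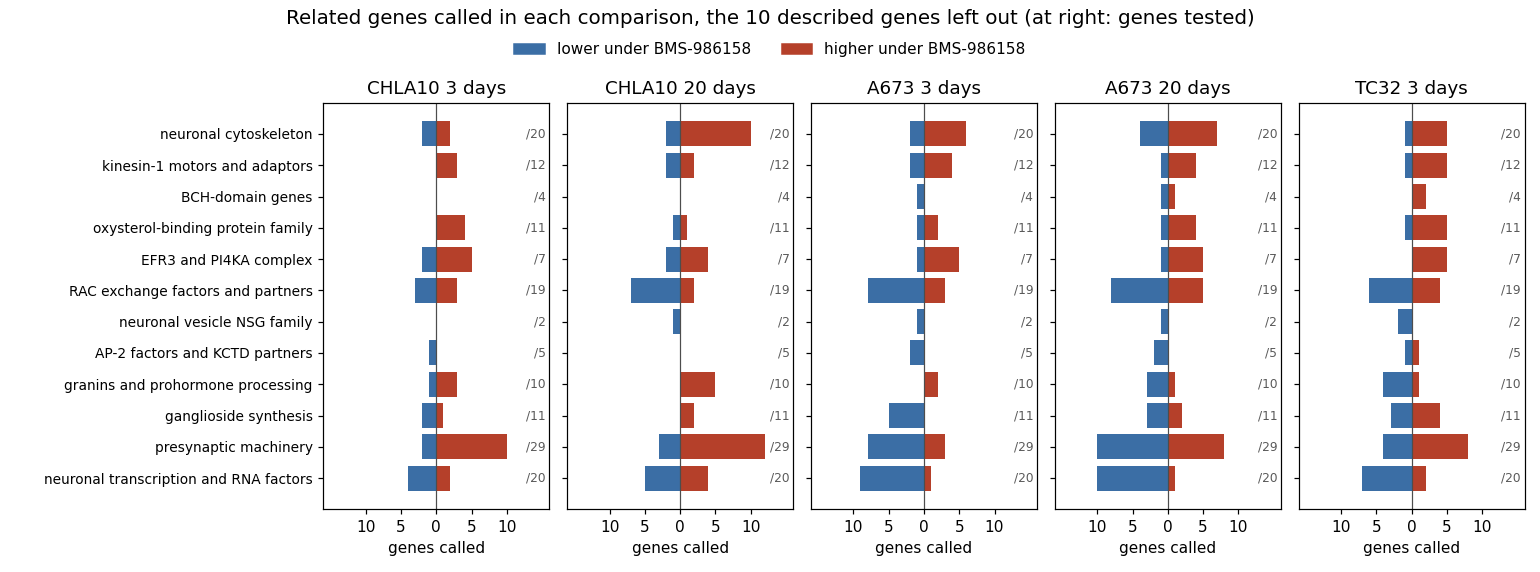
Number of genes called higher (red, to the right of 0) and lower (blue, to the left) by edgeR at adjusted p under 0.05 under BMS-986158 in 12 related lists (rows) and 5 comparisons (panels), the 10 genes themselves left out. The number tested stands at the right of each row; the presynaptic row has 12 higher and 3 lower of 29 in CHLA10 at 20 days and 8 higher and 10 lower in A673 at 20 days.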

How the data were processed

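Poly(A) RNA of 30 libraries, 10 groups of 3 by line, time and treatment, was sequenced as paired reads, per the labels. Per the submitters' processing notes, FastQC, Trim Galore, STAR and DESeq2 were used with GRCh38. The counting step, its use of strand, the gene models and all versions were not given in the sources used here. Values that the authors deposited are raw, whole-number counts. Of 33538 gene IDs, 33113 had a symbol and 33456 a GENCODE 29 position. All labels give batch 1, and no 2 libraries agreed within counting noise.

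Counts were filtered with filterByExpr by group (16713 kept), scaled by TMM and fitted in R 4.3.3 with edgeR 4.0.16 as 1 robust quasi-likelihood model over all libraries, with Benjamini-Hochberg adjustment over all genes tested and calls at adjusted p under 0.05. The SE of a log2 change was derived from its F statistic, and intervals are 95%. CPM used TMM-scaled sizes, and log2 CPM a prior count of 2. The fit was tested on simulated data. The members and lists were chosen with earlier results of these data known. List genes named in the text are drawn from the 3 per list and comparison with the largest change among those called, not overlapping and with a mean log2 CPM of at least 0. The 2 genes most like each member are named, from a search that left out some symbols by their form, as given above. Between treated and DMSO libraries of the same replicate number, deviations from the group means had correlations of 0.20, 0.15 and 0.36 in CHLA10 at 20 days. Elsewhere they lay between -0.16 and 0.16. Whether the numbers pair libraries was not tested. Alternatives were DESeq2 1.42.0, limma-voom (limma 3.58.1), other scalings, filters and thresholds, fewer groups, a replicate block, each replicate left out and the 4 most distant libraries left out. Figures used matplotlib 3.10.9 in Python 3.11.15.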

Additional observations from a re-analysis of the deposited data

Results flagged for a closer look

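Of the 10 genes, 5 had a response at 3 days or between times that differed by a test of the difference itself. Of all genes, 10.5% were called for A673 against CHLA10 and 13.8% for TC32 against CHLA10 at 3 days. For A673 at 20 against 3 days the share was 7.26%. The share of all genes called in any of these comparisons was not computed, so nothing is read from the count of 5. The genes were chosen on a change in CHLA10, so nothing is read from the direction of the differences from CHLA10 either. For OSBPL6 the A673 response at 3 days was -1.98 against that of CHLA10 (edgeR adjusted p = 5.08e-05), with treated libraries above DMSO libraries in 3 of 3 in each line. For TIAM1 the difference of A673 from CHLA10 at 3 days was -2.47 (edgeR adjusted p = 0.000127), and that of TC32 from CHLA10 was -1.38 (edgeR adjusted p = 0.0198). For MAP2 the TC32 response was -2.16 against that of CHLA10 (edgeR adjusted p = 0.00103), and for KIF5C it was -3.55 (edgeR adjusted p = 0.0025). This KIF5C difference missed the threshold with limma-voom (adjusted p = 0.0572). The TIAM1 difference of TC32 missed it without certain single libraries, such as CHLA10 3-day DMSO replicate 2 (edgeR adjusted p = 0.0976). For VGF the A673 response at 20 days was -3.69 against that at 3 days (edgeR adjusted p = 0.00161), with 3 of 3 treated libraries above the DMSO libraries at 3 days and 3 of 3 below at 20 days. How VGF was chosen is not stated, so this VGF difference is description only. Groups of 3 libraries are too small for a test of single outlying libraries.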

How the results depend on the processing

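Over 678 recomputed changes of the 10 genes under BMS-986158, leaving out CHLA10 at 20 days, whose values chose them, 648 kept their direction and their side of the threshold, 8 lost and 20 gained a call and 2 changed sign; 99 of 100 group means stayed within 1 SD and 102 of 120 list counts within 1.5 times. The number of the 10 genes called moved by more than that in 6 comparisons. For the CHLA10 DMSO groups of 20 and 3 days (2 genes) it was 0 at adjusted p under 0.01, 0 with an absolute log2 change of at least 1, 1 with limma-voom, 0 with only those groups in the fit, 1 with the replicate block and 0 to 2 with 1 library left out. For the TC32 against the CHLA10 response (3 genes) it was 5 with DESeq2, 7 with only those groups and 6 without the 4 most distant libraries, and 2 to 4 with 1 library left out. For the A673 against the CHLA10 response at 3 days (2 genes) it was 5 with only those groups, 5 with the replicate block and 5 without the 4 libraries. For the A673 response at 20 against 3 days (1 gene) it was 2 with DESeq2, 2 with only those groups, 2 with the block, 5 without the 4 libraries and 1 to 2 with 1 library left out. For the A673 DMSO groups (0 genes) it was 1 with DESeq2, limma-voom and library size only, 5 without the 4 libraries and 0 to 1 with 1 left out. For the CHLA10 response at 20 against 3 days (4 genes) it was 2 to 5 with 1 library left out. Both CHLA10 comparisons of 20 with 3 days use libraries that chose the genes, so their counts are description. The replicate block changed no call at CHLA10 20 days. Whether libraries that share a replicate number are pairs is not known. The cause of these moves was not tested.

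No value that changed sign had passed the threshold. In the A673 against the CHLA10 response at 3 days, TFAP2B was 0.64 with limma-voom, 0.55 with the block and 0.07 without the 4 libraries, and VGF was 0.03 with limma-voom and 0.02 with the block. NSG2 was 0.11 with DESeq2 and 2 with limma-voom in the TC32 against the CHLA10 response, and 0.42 with limma-voom and 0.07 without the 4 libraries in the A673 against the CHLA10 response at 20 days. In the A673 response at 20 against 3 days, TFAP2B was 0 with limma-voom and -0.62 without the 4 libraries, NSG2 0.26 with limma-voom and EFR3B -0.27 without the 4 libraries. Between CHLA10 DMSO groups, TIAM1 was 0.07 with limma-voom and 0.22 without the 4 libraries and NSG2 was 0.2 without them, and between A673 DMSO groups NSG2 was -0.1 without them.

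With 1 library left out, the ranges that crossed 0 were -2.95 to 3.71 for TFAP2B and -0.3 to 0.07 for VGF in TC32. In the A673 against the CHLA10 response at 3 days they were -0.45 to 1.54 for TFAP2B, -0.93 to 0.06 for MAP2, -0.03 to 0.41 for EFR3B and -0.52 to 0.24 for VGF. In the TC32 against the CHLA10 response they were -0.5 to 6.16 for TFAP2B, -0.27 to 0.04 for B4GALNT1 and -1.18 to 0.34 for NSG2. In the A673 response at 20 against 3 days they were -0.54 to 0.64 for TFAP2B, -0.07 to 0.52 for EFR3B and -3.22 to 2.02 for NSG2. NSG2 had -2.53 to 0.11 in the A673 against the CHLA10 response at 20 days. Between CHLA10 DMSO groups they were -0.25 to 0.05 for EFR3B, -0.69 to 0.12 for VGF, -0.39 to 0.77 for TIAM1 and -0.53 to 0.23 for NSG2. Between A673 DMSO groups they were -0.58 to 0.17 for VGF, -0.13 to 0.03 for KIF5C and -0.15 to 0.41 for NSG2. Depth limits NSG2 and TFAP2B in TC32 and treated NSG2 in A673, where 1 count was 0.0202 to 0.0666 CPM.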
